A study of Mus musculus with 10 samples.

Results

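Of the 50039 regions whose accessibility was measured by ATAC-seq in group 2 innate lymphoid cells (ILC2s) of 5 mouse tissues, 1178 (2.35%) were most open in the bone marrow (BM) libraries. They were chosen by a rule on the counts themselves. Each library was divided by its median-of-ratios size factor to give a normalised count, L was taken as log2(normalised count + 1), and the lower L of the BM libraries had to lie at least 0.5 above the highest L of the other 8 libraries. That difference is called the margin, and because it chose the members, every level of BM against another tissue below is a description without a test. The cells came from wild-type C57BL/6 male mice aged 6 weeks, with 2 libraries of 50000 sorted cells for each tissue, namely BM, the lung, the pancreas, the large intestine (LI), and the small intestine (SI). The cells of 16 mice were pooled for a BM, lung, or pancreas library and those of 10 mice for an LI or SI library. BM cells were gated as lineage-negative ST2+CD25+ cells, LI, lung, and pancreas cells also by CD45 and CD127, and SI cells by CD45, CD127, Thy1, and KLRG1, with the BM sort on a sorter of its own. Lineage-negative meant free of FceRI, CD11c, CD11b, B220, and CD3, a set without a red cell marker. For the same BM gate, the paper reported that the large majority of cells were ILC2s by CD45, CD127, and high GATA3. Tissue, gate, and sorter cannot be told apart in this design.

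ATAC-seq counts the insertions of the Tn5 transposase, which enters chromatin where nucleosomes leave room, at promoters near transcription start sites (TSSs) and at distal elements such as enhancers. ILC2s are tissue lymphocytes that make type 2 cytokines under the factor GATA3, and the BM holds their progenitors together with mature cells. The BM is also where red cells form, under the factors GATA1, TAL1, and KLF1, with GATA1 and GATA3 reading nearly the same DNA letters.

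The identity of the BM libraries was first checked at ILC2 genes. The promoter of *Gata3*, the defining transcription factor of ILC2s, held 1122 and 1030 normalised counts in BM libraries 1 and 2, against 815 to 1055 in the other 8 libraries. At *Il1rl1*, which encodes the IL-33 receptor subunit ST2 of the gate, the promoter held 447 and 263 in BM and 56.6 to 544 elsewhere. The summed level of all regions nearest to 15 ILC2 genes was 75959 and 80029 in BM and lay within the range of the other libraries (54396 to 93684). ILC2 chromatin was thus open in both BM libraries. Of the 266 regions of these genes, 5 (1.88%) were among the regions most open in BM, near the 2.35% of the whole table. Total counts were 21210346 and 22931454 in BM and 10282987 to 32797872 in the others.

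The members did not behave alike in the BM libraries. In 566 of the 1178 (48.0%), BM library 1 exceeded BM library 2 by 0.5 or more in L, and the reverse held for 37 (3.14%). Among 26379 other regions with a BM level between 71.5 and 611 normalised counts, these shares were 12.4% and 10.4%. The differences of the members fell into 2 heaps, the first around 0 (195 and 196 members in the bins just below and just above it) and the second between 1 and 1.25 (165 members), with 92 members between 0.25 and 0.5. The 566 members with a higher BM library 1 had a median of 179 normalised counts in BM library 1 and 83.7 in BM library 2, and the remaining 612 had 154 and 160. Because the rule reads the lower BM library, the former group passed on BM library 2, where it was lower. Its median margin was 1.12 and its median ratio of the BM mean to the mean of the other libraries was 7.85, against 0.74 and 2.86 in the remaining members. Of the 50 members with a margin of 2 or more, 42 had the higher BM library 1. The description below therefore keeps the groups apart. This division was made after the values had been seen.

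**Figure D1:**
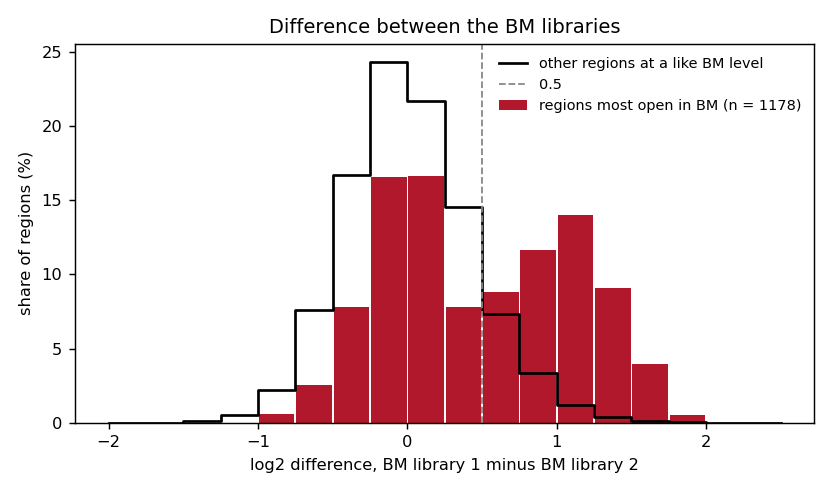
The log2 difference between BM library 1 and BM library 2 is plotted on the horizontal axis and the share of regions per bin of 0.25 on the vertical axis, with filled bars for the 1178 members, a black line for the other regions at a like BM level, and a dashed line at 0.5. The members form a heap around 0 and another near 1, and the other regions only the heap around 0.

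The sequences at the centres of the regions with the largest margins are given first, since the letters that members shared were in most cases those of the GATA factors. Each run holds 200 bases of the plus strand of GRCm38, and capitals mark AGATAA or TGATAA on either strand. Of the 6 windows taken from the largest margins outside promoters and exons, 5 held a match, and *Il10rb* is shown as the one without. Of 4 windows with the largest margins among members with alike BM libraries, 3 held a match. *Ranbp10*, *Nprl3*, *Dnajc11*, *Gse1*, and *Il10rb* stand among the 10 largest margins outside promoters and had the higher BM library 1. *Pip4k2a*, also among these 10, and *Zeb2* show members with alike BM libraries, and *Galnt6* is the member that differed most clearly between lung and SI. *Zeb2* and *Galnt6* were added after the values had been seen.
Ranbp10 intron 2, chr8:105821072-105821271: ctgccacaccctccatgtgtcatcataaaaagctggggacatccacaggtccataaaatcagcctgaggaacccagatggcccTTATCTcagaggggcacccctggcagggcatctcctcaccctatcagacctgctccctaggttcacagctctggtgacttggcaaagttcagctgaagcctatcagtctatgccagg
Nprl3 intron 6, chr11:32245728-32245927: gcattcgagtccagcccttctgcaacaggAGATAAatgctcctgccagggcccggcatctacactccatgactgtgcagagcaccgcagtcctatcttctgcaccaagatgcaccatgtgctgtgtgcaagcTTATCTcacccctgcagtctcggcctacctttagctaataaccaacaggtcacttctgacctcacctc
Dnajc11 intron 4, chr4:151960585-151960784: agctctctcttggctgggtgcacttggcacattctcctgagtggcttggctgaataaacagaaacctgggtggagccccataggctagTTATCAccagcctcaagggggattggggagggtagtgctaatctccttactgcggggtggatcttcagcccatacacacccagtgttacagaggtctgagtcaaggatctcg
Gse1 intergenic, chr8:120371817-120372016: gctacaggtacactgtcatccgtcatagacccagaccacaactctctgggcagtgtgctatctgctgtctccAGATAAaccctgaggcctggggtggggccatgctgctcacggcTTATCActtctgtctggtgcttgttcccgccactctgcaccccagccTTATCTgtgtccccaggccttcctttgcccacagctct
Il10rb intergenic, chr16:91441691-91441890: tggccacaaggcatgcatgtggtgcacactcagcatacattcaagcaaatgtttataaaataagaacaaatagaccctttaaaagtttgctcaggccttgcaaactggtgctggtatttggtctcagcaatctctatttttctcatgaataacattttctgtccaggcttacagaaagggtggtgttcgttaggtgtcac
Pip4k2a intergenic, chr2:19011590-19011789: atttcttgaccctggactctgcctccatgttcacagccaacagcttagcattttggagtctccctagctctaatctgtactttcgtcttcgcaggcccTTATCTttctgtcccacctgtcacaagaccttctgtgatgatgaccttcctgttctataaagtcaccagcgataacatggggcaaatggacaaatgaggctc
Zeb2 intergenic, chr2:46518066-46518265: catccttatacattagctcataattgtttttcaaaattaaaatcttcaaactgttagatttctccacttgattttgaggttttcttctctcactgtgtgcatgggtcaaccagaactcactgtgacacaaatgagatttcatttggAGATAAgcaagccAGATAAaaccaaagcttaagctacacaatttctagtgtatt
Galnt6 intergenic, chr15:100738538-100738737: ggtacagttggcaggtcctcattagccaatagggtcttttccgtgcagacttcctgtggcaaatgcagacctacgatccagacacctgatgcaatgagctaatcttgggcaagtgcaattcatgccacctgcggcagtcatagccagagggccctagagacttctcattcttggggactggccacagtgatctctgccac

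The largest margin of all, 3.50, belonged to a region in intron 2 of *Ranbp10*, which encodes a Ran-binding protein. It held 462 and 248 normalised counts in the BM libraries and 3.28 to 21.0 in the others. A region in intron 4 of *Dnajc11*, a mitochondrial chaperone gene, followed with 285 and 128 in BM and 1.09 to 16.8 elsewhere. A region in intron 20 of *Iqgap2*, which encodes a cytoskeletal scaffold, held 407 and 177 in BM and 8.14 to 25.2 elsewhere. In intron 6 of *Nprl3*, the gene whose introns harbour the enhancers of alpha-globin, a region held 262 and 107 in BM and 3.28 to 16.6 elsewhere. In each of these regions BM library 1 was higher than BM library 2. The rule itself placed the other 8 libraries below both. The intergenic region 117 kb upstream of *Gse1* held 531 and 341 in BM and 19.1 to 58.5 elsewhere, and contained 3 of the GATA matches. The region 35.6 kb from *Il10rb*, a cytokine receptor gene, held 428 and 161 in BM and 2.19 to 27.3 elsewhere. The region 13.6 kb upstream of *Pip4k2a* held 166 and 141, with 2.71 to 25.2 elsewhere, so that its BM libraries were nearly equal.

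The promoters with the largest margins were in large part those of red cell genes. The *Gid8* promoter, of a subunit of an E3 ubiquitin ligase complex, had the largest margin (2.89), with 316 and 170 normalised counts in BM and 6.56 to 22.0 in the others. At *Trim10*, a RING finger gene of erythroid cells, the promoter held 252 and 78.1 in BM and 3.28 to 12.6 elsewhere. At *Kel*, which encodes the Kell blood group protein, it held 199 and 82.8 in BM and 4.07 to 17.0 elsewhere. As the rule requires of every member, all 3 lay above every other library in both BM libraries. *Epb42*, which encodes protein 4.2 of the red cell skeleton, held 259 and 80.9 in BM and 1.09 to 16.8 elsewhere. *Hbb-bs*, an adult beta-globin gene, held 222 and 154 in BM and 3.83 to 35.6 elsewhere. The promoter of *Dach1*, a transcription factor gene, held 186 and 135 in BM and 14.2 to 33.6 elsewhere. Its BM libraries were 0.463 apart in L and those of *Hbb-bs* 0.522, a like gap on either side of 0.5. *Slc30a10*, which encodes a manganese exporter, and *Tfdp2*, which encodes a partner of E2F, were among the 10. So was the promoter of *Gm34253*, which lies in exon 3 of the erythroid long noncoding RNA *Bloodlinc*, 10.3 kb upstream of *Slc4a1*. It held 348 and 128 in BM and 2.19 to 37.8 elsewhere.

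Among 14 erythroid marker genes, 12 had a region in the table and 8 had a region most open in BM. Of the 25 regions of this list, 10 (40.0%) were members, against 2.35% of all regions. BM library 1 was higher by 0.5 or more in all 10. The members included promoters of *Epb42*, *Hbb-bs*, *Hbb-bt*, *Hba-a1*, and *Car1*, the region in exon 3 of *Bloodlinc*, and intron 1 of both *Slc4a1* and *Alas2*. *Alas2* encodes the rate-limiting enzyme of heme synthesis in red cell precursors, and its region held 203 and 113 in BM and 0.960 to 25.2 elsewhere. The 4 markers with a region and no member were *Klf1*, *Hba-a2*, *Epor*, and *Tfrc*, while *Gata1* and *Ermap* had no region nearest to them. The summed level of the list was 6280 and 4066 in BM and 2056 to 2832 in the others. The adult globin genes are near-identical copies and the authors kept uniquely mapped reads, so levels at *Hba-a1*, *Hba-a2*, *Hbb-bs*, and *Hbb-bt* are uncertain.

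Broader lists of red cell genes, drawn up after the values had been seen, were described in the same way. They count some members of the erythroid markers again, among them those of *Hbb-bs*, *Hbb-bt*, and *Hba-a1*, so the shares are not independent. Among globin genes, 6 of 12 regions (50.0%) were members, against 2.35% of all regions. Among 13 genes of heme synthesis, 6 of 33 regions (18.2%) were members, including intron 1 of *Alad*, the enzyme of the second step, with 295 and 165 in BM and 8.62 to 44.0 elsewhere. At *Uros*, another enzyme of the pathway, the promoter held 207 and 96.7 in BM and 2.19 to 29.4 elsewhere. *Slc25a38*, which encodes the mitochondrial glycine carrier, *Abcb10*, and *Urod* held a member each, and the member of *Urod*, in exon 14 of the neighbouring *Zswim5*, had equal BM libraries (173 and 175). Among 25 genes of the red cell membrane and its skeleton, 22 of 106 regions (20.8%) were members, with the higher BM library 1 in 19. *Ank1* (ankyrin) held 363 and 98.6 in BM and 2.73 to 37.8 elsewhere. *Sptb*, *Epb41*, *Tmod1*, *Rhag*, *Rhd*, *Aqp1*, *Gypc*, and *Add2* also held members, whereas *Cd47*, with 30 regions, *Slc2a1*, and *Dmtn* held none. Only *Add2* among those named here in the membrane list had BM libraries less than 0.5 apart at its best region. Erythroid transcription factor genes gave 12 of 91 regions (13.2%), a lower share than the other red cell lists, with the higher BM library 1 in 7 of the 12. Their members lay nearest to *Zfpm1*, *E2f2*, *Gata2*, *Gfi1b*, *Lmo2*, *Lyl1*, *Bcl11a*, and *Myb*, the last 6 of which also stand in the list of ILC development factors.

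Markers of other cell types that a BM sort could hold were examined in the same way. None of the 21 regions of neutrophil and monocyte genes, the 21 of B cell genes, the 10 of eosinophil genes, the 30 of NK cell and ILC1 genes, the 24 of ILC3 genes, or the 36 of stromal genes was a member. Lists this short would hold few or no members at the 2.35% of all regions, so their lack of members is not read as a difference. Megakaryocyte genes gave 2 of 28 regions (7.14%), in introns of *Vwf* and *Itgb3*, both with the higher BM library 1. The T cell list gave 1 of 88, the mast cell and basophil list 1 of 53 (*Gata2*), and the dendritic cell list 2 of 41. The summed level of the neutrophil and monocyte list was 8449 and 7258 in BM and ranged from 4383 to 14310 elsewhere, highest in pancreas library 2. The members of the erythroid list had the higher BM library 1, as did most members with the largest margins, and their part in those margins was not tested. In bulk libraries, more cells of a type and more open chromatin per cell cannot be told apart.

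**Figure D2:**
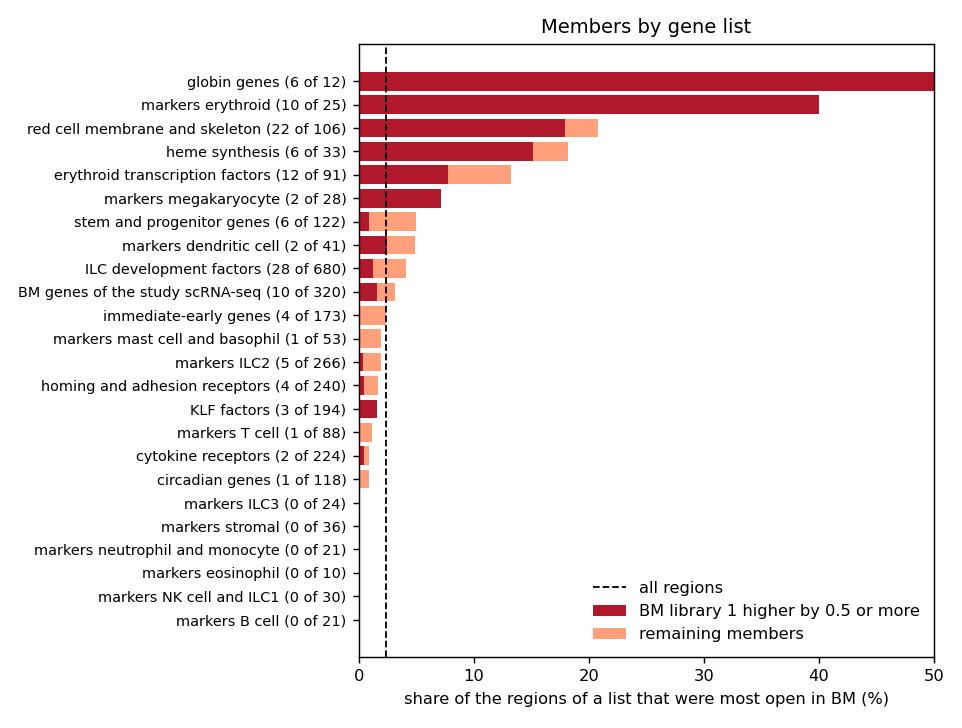
Horizontal bars give, for each gene list, the percentage of its regions that were most open in BM, split into members with BM library 1 higher by 0.5 or more and the remaining members, with the counts beside each name and a dashed line at the 2.35% of all regions. Globin genes (50.0%) and erythroid markers (40.0%) stand highest and are dark throughout. The globin list was drawn up after the values had been seen and shares members with the erythroid markers.

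Members lay close to each other at some loci. Another member lay within 50 kb of 353 members (30.0%), and a member lay within that distance of 9.56% of the other regions. At the beta-globin cluster, all 6 regions in a stretch of 57.4 kb on chromosome 7 (103813730 to 103871088) were members, and all 6 had the higher BM library 1. They comprise the promoters of *Hbb-bs* and *Hbb-bt*, 3 regions 6.09 to 12.7 kb upstream of the embryonic gene *Hbb-y*, and 1 nearest to *Olfr66*. The region 6.09 kb upstream of *Hbb-y* held 235 and 112 in BM and 1.09 to 46.2 elsewhere. Around *Ranbp10*, 3 of 7 regions in 22.0 kb were members, again each with the higher BM library 1. At *Car2*, which encodes a carbonic anhydrase of red cells, all 4 regions were members, and the BM libraries differed by 0.5 or more at the upstream pair (252 and 104 normalised counts 8.56 kb upstream) and not at the pair next to the TSS (561 and 551 in exon 1). Both patterns of the BM libraries were thus present at this locus.

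Apart from the beta-globin cluster, the BM libraries were mostly alike in the 5 longest runs, at *Zbtb16*, *Gse1*, *Aff3*, and *Ptpre*. *Zbtb16* encodes PLZF, a factor of innate lymphoid precursors, and a run of 9 members among 14 regions covered it over 123 kb on chromosome 9. The region 29.1 kb inside the gene held 767 and 1084 normalised counts in BM and 107 to 466 elsewhere. A region 40.6 kb inside it held 498 and 597 in BM and 83.1 to 263 elsewhere. In the run, 1 region in intron 3 departed from the others, with 540 and 270 in BM and 9.44 to 58.8 elsewhere. *Aff3*, a gene of the AF4 family of elongation factors active in lymphoid cells, was nearest to 9 members among 14 regions, the most of any gene. BM library 1 was not higher by 0.5 or more in any of the 9. The region 67.1 kb upstream of *Aff3* held 359 and 371 in BM and 21.9 to 86.8 elsewhere, and a region in intron 1 held 779 and 983 against 136 to 267. *Gse1* had 8 members, 2 of them with the higher BM library 1. *Sox4*, a factor of lymphoid progenitors, had 6 of 16 regions, among which BM library 2 was the higher in the foremost (129 and 206, against 9.29 to 38.9 elsewhere). *Ptpre*, a phosphatase gene, had 6 of 16 and *Gpr25*, a receptor gene, 4 of 4, and the BM libraries of none of these favoured library 1 by 0.5 or more. At *Gpr25* the foremost member, in exon 18 of the neighbouring *Camsap2*, held 600 and 582 in BM and 29.4 to 120 elsewhere.

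Distal sites made up most of the members. By position, 88 members (7.47%) were promoters (a centre no more than 1000 bp before or 100 bp after a TSS), 638 (54.2%) lay inside genes, and 452 (38.4%) were intergenic, whereas all regions gave 19.2%, 48.1%, and 32.7%. The lower promoter share did not hold without BM library 2, where the rule took 2455 regions and 20.2% were promoters. Without BM library 1 it took 1738, of which 10.4% were promoters. Over the whole table, the median margin was -0.23 at promoters and -0.84 outside them. The median raw count per region was 568.5 at promoters and 125.7 outside them. Scatter at low counts lowers the margin, so these medians do not show which way promoters lean. The paper chose its BM-specific regions otherwise, with DESeq2 between pairs of tissues, and reported many of them at promoters. The promoter share of 7.47% here, below that of all regions, differs from this. The part of the selection in the difference was not tested. Introns held 92.5% of the members inside genes. The median distance to a protein-coding TSS was 19730 bp, against 12702 bp over all regions, and 803 members (68.2%) lay more than 10 kb away, against 54.5% of all regions. The members farthest out lay 1876 kb from *Hace1* and 1254 to 1408 kb upstream of *Zeb2*, a factor of lymphoid maturation, where the nearest gene is no more than a convention. The foremost *Zeb2* region, 1401 kb away, held 183 and 174 in BM and no more than 33.9 elsewhere. Another 5 members lay 85.1 to 570 kb from *Dad1*, in the part of chromosome 14 that holds the variable segments of the T cell receptor alpha and delta genes. Their BM means reached 249 normalised counts, and 1 of the 5 had the higher BM library 1. In all, 952 protein-coding genes were nearest to a member, 148 of them to more than 1.

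Factors of ILC development contributed 28 of 680 regions (4.12%, against 2.35% of all regions), at 13 of 38 genes. Of the 28, 8 had the higher BM library 1. *Mef2c*, a factor of lymphoid progenitors, held 161 and 232 in BM and 7.65 to 40.7 elsewhere at a region in intron 2. *Bcl11a*, required for lymphoid development and for the silencing of fetal globin, was nearest to 4 members, and the one 1.67 kb upstream held 603 and 683 in BM and 202 to 312 elsewhere. *Myb*, a factor of progenitors, held 185 and 212 at a region 35.8 kb upstream, against 48.1 to 88.2 elsewhere. These 3 regions had alike BM libraries or the higher BM library 2. Regions of *Gfi1b*, *Lmo2*, and *Lyl1*, whose products act with GATA and TAL1 factors in blood progenitors, had the higher BM library 1, for example 171 and 80.9 at *Gfi1b*, with 2.19 to 37.8 elsewhere. Stem and progenitor genes gave 6 of 122 regions (4.92%, against 2.35% of all regions). Of these, 4 lay in intron 3 of 1 gene, *Erg*, which encodes an ETS factor of blood stem cells. The foremost *Erg* region held 160 and 192 in BM and 12.0 to 57.6 elsewhere.

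Among the lists of genes that ILC2s use, the share of members ran from 0.847% to 3.13%, around the 2.35% of the whole table. A region 10.0 kb from *Calca*, which encodes the peptide CGRP, held 479 and 477 normalised counts in BM and 46.1 to 169 elsewhere. At *Rora*, a factor of ILC2 development, a region in intron 2 held 566 and 540 in BM and 134 to 365 elsewhere. At *Icos*, a costimulatory receptor gene, a region 44.6 kb away held 75.7 and 74.4, with 10.6 to 32.1 elsewhere. Homing and adhesion receptors gave 4 of 240 regions (1.67%). *Ccr9*, a receptor for homing to the gut, held 591 and 632 in BM and 80.7 to 331 elsewhere, 10.3 kb from its TSS. Immediate-early genes gave 4 of 173 (2.31%), at *Nr4a2*, *Zfp36*, *Jund*, and *Dusp2*, with 398 and 409 at *Nr4a2*, a nuclear receptor gene, against 14.2 to 151. Krüppel-like factors gave 3 of 194 (1.55%), at *Klf3* and *Klf9*, cytokine receptors 2 of 224 (0.893%), and circadian genes 1 of 118 (0.847%). The genes higher in BM ILC2s in the single-cell RNA data of the study gave 10 of 320 regions (3.13%), close to the 2.35% of the whole table. Of these 10 regions, 5 had the higher BM library 1. Among them was a region in intron 8 of *Lztfl1*, with 245 and 106 in BM and 14.4 to 40.7 elsewhere. The BM libraries did not stand apart in this way at *Ccr9*, *Zfp36*, *Jund*, *Phlda1*, and *Stab2*.

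**Figure D3:**
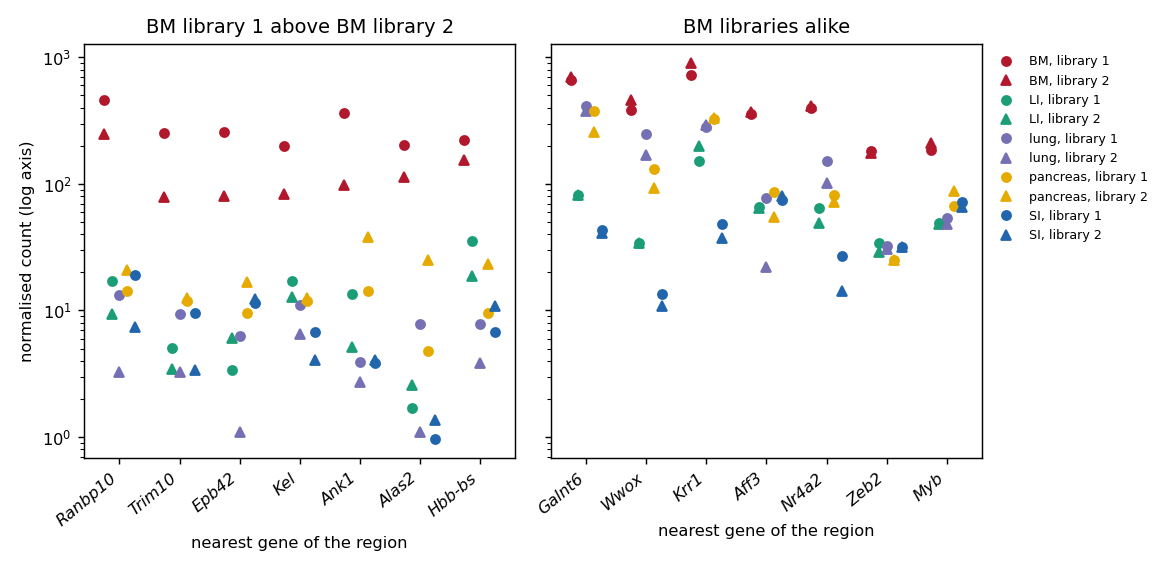
Normalised counts (log axis) of the foremost or named region of 14 genes are plotted in each of the 10 libraries, with circles for library 1, triangles for library 2, and a colour for each tissue. On the left, BM library 1 lies above BM library 2 and the other tissues are scattered at low counts. On the right the BM symbols nearly coincide, and the other tissues keep an order at *Galnt6*, *Wwox*, *Krr1*, and *Nr4a2*. These genes were picked for a small adjusted p between lung and SI, and those on the left for a higher BM library 1. The panels therefore do not compare the groups.

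The DNA letters of the members were not used by the rule and were searched in the central 500 bases on both strands, with the share among all regions of the class beside them. The GATA letters AGATAA or TGATAA were present in 822 of 1090 members outside promoters (75.4%), against 41.9% of all such regions, and in 39 of 88 member promoters (44.3%), against 15.0%. Both groups held more than the table, with 87.1% where BM library 1 was higher and 64.8% in the remaining members. Beyond 10 kb of a TSS the letters were present in 602 of 803 members, against 46.4% of all such regions. The letters that TAL1 and GATA1 occupy together, CTG followed after 7 or 8 bases by AGATAA or TGATAA, were searched after the values had been seen. They overlap the GATA letters by construction. They were present in 34.5% of the members with the higher BM library 1 and 7.36% of the remaining members, against 3.13% of all regions outside promoters. The groups also differed in other letters. ETS letters (CCGGAAG or AGGAAGT) were present in 9.25% of the former and 24.2% of the latter, against 26.7% of all. RUNX letters (TGTGGTT or TGCGGTT) stood at 13.5% and 22.6%, against 22.3%, and KLF letters (GGGTGTGG, GGGCGTGG, or GGGTGGGG) at 28.1% and 19.6%, against 18.4%. AP-1 letters (TGACTCA or TGAGTCA) were rarer in both, at 11.2% and 14.4% against 21.1%. CTCF letters (CCA and AGGGGGC 2 bases apart, or CCAC and AGGTGGC 1 base apart) were present in 9 members outside promoters (0.826%), against 3.58%. Median GC content was 48.8% in members and 49.8% in all regions, and repeats covered a median of 9.60% and 9.46% of a region. A match describes letters only and is not a bound site. In the paper, GATA motifs were shared by the tissue-specific regions of every tissue, and KLF motifs were enriched in those of BM. The GATA share of the members is therefore not shown to be particular to BM.

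**Figure D4:**
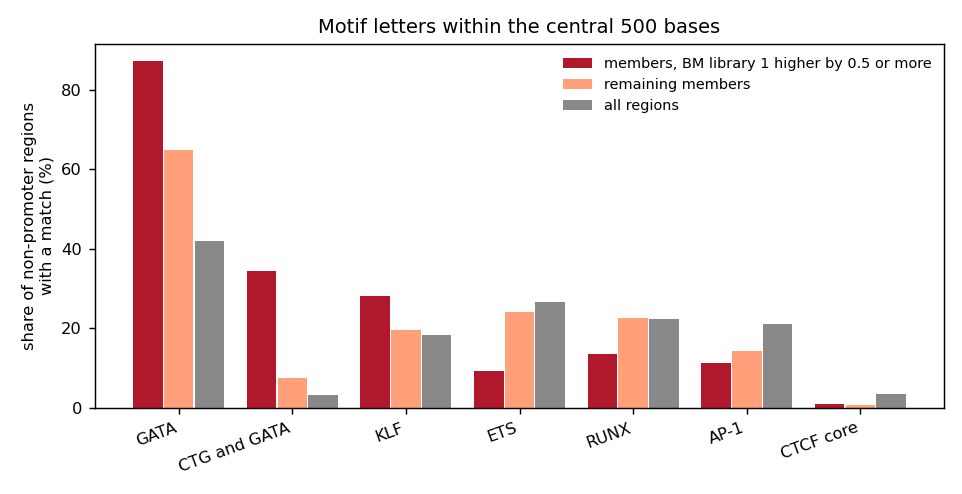
Bars give the percentage of regions outside promoters that hold each set of letters in the central 500 bases, for members with BM library 1 higher by 0.5 or more, the remaining members, and all regions. GATA letters are present in 87.1%, 64.8%, and 41.9%, and the joint letters of CTG and GATA in 34.5%, 7.36%, and 3.13%.

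Differences among the other 4 tissues did not choose the members, but the rule placed all 8 of their libraries below BM. A region that was very open in any of these tissues could thus not be a member, so the share of members that passed is a description and is not read against that of all regions. With edgeR's quasi-likelihood test and Benjamini-Hochberg adjustment over 49981 regions, 261 members (22.2%) had an adjusted p under 0.05 in at least 1 of the 6 comparisons, against 33.9% of all regions. The BM libraries, on which the members and their groups were chosen, also enter the spread of this fit. A fit on the 8 libraries without BM called 148 members (12.6%) and 31.9% of all regions. By group, 93 of 566 members with the higher BM library 1 (16.4%) passed with BM in the fit and 24 (4.24%) without it, and 168 of 612 remaining members (27.5%) passed with BM and 124 (20.3%) without it. The median of the mean normalised count outside BM was 15.8 in the former group and 49.6 in the latter, so the groups are not compared. Members have lower counts, with a median over the 10 libraries of 50.7 raw counts per region against 156 in the table, which limits the test. Between pancreas and SI, 141 members (12.0%) passed, against 20.5% of all regions. Of these, 126 were higher in pancreas (10.7% of the members, against 12.0% of all regions). Between lung and SI 124 passed (background 21.0%), 75 of them higher in lung (background 9.86%). Between lung and pancreas 57 passed (background 5.82%), and 52 of them were lower in lung (background 4.20%). Of these 57, 39 had the higher BM library 1, all lower in lung. Without BM in the fit, 13 members passed this comparison, 4 of them with the higher BM library 1, and 83 passed between pancreas and SI and 85 between lung and SI. The comparisons of LI with lung, pancreas, and SI gave 61, 9, and 39 members, with backgrounds of 10.9%, 3.27%, and 8.44%. All 9 of the LI and pancreas comparison were higher in pancreas (0.764% of the members). Of all 49981 regions, 626 passed in that direction and 1007 in the other. The median log2 difference of lung minus pancreas was -1.45 in the members with the higher BM library 1 and -0.34 in the remaining members. That of pancreas minus SI was 0.90 and 0.28. Over all regions these medians were -0.007 and -0.058. In the former group, median normalised counts were only 11.8 and 4.92 in lung libraries 1 and 2, and 16.6 and 33.6 in pancreas. The values are thus low and uneven between libraries, and the groups are not compared here either.

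The 10 members with the smallest adjusted p between lung and SI were all higher in lung. A region 9.26 kb upstream of *Galnt6*, which encodes an O-glycosyltransferase, held 412 and 378 normalised counts in lung, 380 and 256 in pancreas, 81.4 and 81.5 in LI, and 43.2 and 40.7 in SI, with 666 and 705 in BM. It was higher in lung than in SI by 3.22 (log2, edgeR adjusted p = 8.8e-07). A region in intron 8 of *Wwox*, an oxidoreductase gene, held 249 and 169 in lung, 132 and 92.4 in pancreas, 33.9 and 34.3 in LI, and 13.4 and 10.9 in SI, with 386 and 459 in BM (lung over SI 4.09, edgeR adjusted p = 1.3e-06). The order of tissues was the same in both regions, and the libraries of lung and SI did not overlap. A region 48.3 kb from *Krr1* held 281 and 290 in lung, 323 and 334 in pancreas, 153 and 201 in LI, and 48.0 and 37.3 in SI (pancreas over SI 2.94, edgeR adjusted p = 1.7e-06). A region in intron 1 of *Aff3* held 250 and 207 in lung, 317 and 244 in pancreas, 114 and 70.4 in LI, and 43.2 and 48.8 in SI (pancreas over SI 2.59, edgeR adjusted p = 1.5e-05). The *Nr4a2* region was higher in lung than in SI by 2.63 (edgeR adjusted p = 6.8e-05). The next member by adjusted p had the opposite order, at the promoter of *Prkag2*, a subunit of the energy sensor AMPK, with 160 and 171 in SI against 40.8 and 50.8 in lung (lung minus SI -1.86, edgeR adjusted p = 0.00028). In each of these 6 regions the BM libraries were less than 0.5 apart. All 6 differences also passed in the fit without BM, with edgeR adjusted p from 8.8e-06 at *Galnt6* to 0.0012 at *Prkag2*.

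**Figure D5:**
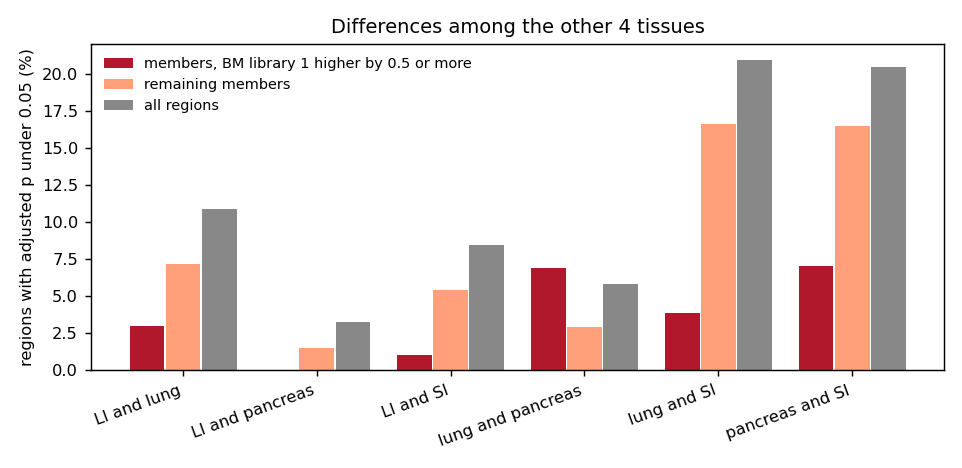
Bars give the percentage of regions with an adjusted p under 0.05 (edgeR) in each of the 6 comparisons among LI, lung, pancreas, and SI, for members with BM library 1 higher by 0.5 or more, the remaining members, and all regions. The BM libraries are part of the fit. For lung and SI the bars stand at 3.89%, 16.7%, and 21.0%.

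Levels of the members outside BM also followed single libraries. The library that came nearest to BM was pancreas library 2 in 478 members (40.6%), although it was so in 13.3% of all regions, and LI library 1 in 224 (19.0%, against 9.15%). These are the libraries with the fewest counts, 10282987 and 13290901. In the members with the higher BM library 1, the median was 33.6 normalised counts in pancreas library 2 and 16.6 in pancreas library 1, and 25.4 and 11.2 in LI. The remaining members gave 58.8 and 53.5 in pancreas and 52.6 and 45.1 in LI, so the libraries of a tissue were closer. The part of depth in this was not tested.

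The margin of 0.5 did not separate distinct kinds of region. Just inside it lay regions in introns of *Aff1* (0.50) and *Il1rl2* and a region near *Calm2*, and just outside it lay the promoter of *Cd59a*, a region near *Gpr171*, and a region near *Zbtb34*. The *Aff1* region held 307 and 261 in BM and 103 to 185 elsewhere, and the *Cd59a* promoter held 134 and 101 and 12.0 to 71.4.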

How the data were processed

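The authors mapped ATAC-seq reads to mm10 with Bowtie2 2.2.9, kept uniquely mapped reads, called peaks with MACS2 2.1.1 in each library, merged the peaks of the tissues, and deposited raw read counts per merged region, without normalization. Whether duplicate reads were removed is not given in the sources used here, and copies cannot be removed from a table of counts. The p-values and shares cover the spread of these libraries only, and the libraries are pools labelled as replicates. Coordinates are as the table gives them. Counts were divided by median-of-ratios size factors with a pseudocount of 1. Classes and genes came from curated RefSeq transcripts of GRCm38, whose chromosome lengths were checked against the table, and the nearest gene is that with the nearest protein-coding TSS. The study compared tissues with DESeq2. Here edgeR 4.0.16 (TMM, glmQLFit, glmQLFTest, tissue as factor, 10 libraries) compared LI, lung, pancreas, and SI in R 4.3.3, with DESeq2 1.42.0 as an alternative. The test was tried on simulated data. Named regions are the 10 promoters and 10 other members with the largest margin, the 10 genes with the most members, the 5 farthest members, the 5 longest runs, the genes of the lists, and the 3 members inside and 3 regions outside the margin. Regions printed for their difference between tissues, and the lists of globin, heme, red cell membrane, and erythroid factor genes, were chosen afterwards. Some single genes that this rule names are not reported here. Members, lists, and tests were chosen with earlier results of these data known. Total counts lay between 10282987 and 32797872 per library.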

Additional observations from a re-analysis of the deposited data

How the results depend on the processing

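The number of members (1178) was 1126 with TMM factors, 1006 with library size alone, 1135 with a pseudocount of 5 or with counts thinned to the smallest library, 1178 with a mean of at least 10 raw counts, and 1297 after removal of trends with GC content and width. It was 487 at a margin of 1 and 612 without the members where BM library 1 was higher by 0.5 or more, a setting added after seeing the data. With each library left out in turn it was 1214 to 2455, the latter without BM library 2. The promoter share (7.47%) was 5.17% with the GC and width trends removed and 9.93% with promoters taken as 1000 bp on both sides of a TSS, and it was 7.28% to 20.2% with each library left out. The 261 members with a difference among the other 4 tissues were 276 with DESeq2's size factors, 271 with library size alone, 366 with DESeq2, and 148 when the fit held the 8 libraries without BM, where the calls over all regions went from 16922 to 15919. The cause was not tested. Leaving out each of these 8 gave 176 to 305, the lowest without pancreas library 2. A replicate block gave 305. The correlations of replicate differences between tissues ran from -0.22 to 0.20. They were 0.16 to 0.20 among LI, lung, and SI and negative in every pair with pancreas. Whether the replicate numbers pair any libraries is not settled by these values. Low counts limit the comparison of members outside BM.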
